A study of Saccharomyces cerevisiae with 12 samples.

Results

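The genes described are GCN4, GCN2 and 44 genes for the synthesis of histidine, arginine, the branched-chain amino acids, lysine, the aromatic amino acids and threonine. They were taken by gene name from the deposited table, which lists 5045 genes, and all 46 were found in it. Each passed the filter of a mean normalized read count of at least 10 over the libraries. The data were polyA RNA-seq libraries of the budding yeast Saccharomyces cerevisiae in 2 time courses, 12 libraries in all, each time point having 1 library without a replicate. In the first course, cells were moved to heat shock at 39 °C. In the second, 1 µM rapamycin was added to remove the J-protein Sis1, a cochaperone of Hsp70, from the nucleus by anchor-away, in which the drug ties a tagged protein to an anchor that leaves the nucleus. Both courses held libraries at 15, 30, 60, 90 and 120 min and their own untreated library at time 0, which for heat shock was labelled as a control at 30 °C. Every library came from the strain labelled Sis1-AA grown in YPD, a rich medium that contains amino acids. The untreated cells therefore carried the tagged Sis1 too. Rapamycin was given to no strain without the anchor system in the libraries analysed here, so an effect of the drug and an effect of Sis1 depletion cannot be told apart.

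Amino acid synthesis in this yeast is under general amino acid control. Uncharged tRNA activates the kinase Gcn2, which phosphorylates the initiation factor eIF2. Short upstream reading frames in the GCN4 leader then let more ribosomes reach the GCN4 start codon, and the Gcn4 protein activates genes of most amino acid pathways through TGACTCA-type promoter elements. GCN4 is thus regulated largely in translation, and its mRNA level does not report the amount of Gcn4 protein. Some pathways have an activator of their own, such as Leu3 for the branched-chain amino acids and Lys14 for lysine.

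The libraries held 2991418 to 4379304 reads in the listed genes, and the 46 genes had 15 to 11073 reads each per library. HSP104, the heat-inducible disaggregase, reached 56611 at 15 min of heat shock, against 1009.7 untreated, and 18428 at 30 min of rapamycin, against 1101 untreated. SIS1 mRNA rose in both courses, so it does not report the depletion, which acts on the protein. FPR1, whose product binds rapamycin and whose gene is commonly removed from strains made for anchor-away, was between 0.00 and 4.28 in every library. Values are normalized read counts of the deposited table. They are relative to the mRNA of the library, so less mRNA of a gene per cell and a different amount of total mRNA cannot be told apart. A mean change is the mean of log2(value + 1) over the 5 treated libraries of a course minus that of its untreated library, with the standard error (SE) of a limma fit to all 12 libraries. A time trend is the change per doubling of time among the treated libraries. A gene is said to rise or fall where its p, adjusted by Benjamini-Hochberg over all 4937 genes tested, was under 0.05. With 1 library per time point these p-values describe the 12 libraries and carry no replicate check. Scaling the libraries to equal totals instead moved the median gene by −0.04 to 0.48 on the log2 scale, and values given under that scaling include this shift.

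Promoter elements were read from the RefSeq sequence of assembly R64, the assembly named sacCer3 in the submitters' processing notes. In the 400 bases before the start codon, TGACTCA on either strand was found in 24 of the 46 genes (52.2%), against 182 of 5016 genes of the table that were matched to RefSeq (3.63%). The shorter core TGACTC, which every TGACTCA contains, was found in 32 of the 46 (69.6%) and in 10.8% of all genes. GCN4 and GCN2 held neither. Of the synthesis groups, 7 of 7 arginine genes, 5 of 6 histidine genes, 8 of 10 branched-chain genes, 4 of 5 threonine genes, 5 of 9 aromatic genes and 3 of 7 lysine genes held the core. The list was drawn up as Gcn4-regulated synthesis genes, so a share above that of all genes is built into its choice and is no result. A match is a stretch of letters and not evidence of binding. The following windows are shown because the results turn on these genes. Each is written 5′ to 3′ on the strand of the gene, with the element in capitals and 9 bases on each side.
HIS4: catgcacagTGACTCAcgttttttt
ARG3: gtcacgtcgTGACTCAtatgctttc
HOM3: tcaggcccaTGACTCAccttttctt
LYS1: ctaagtcgaTGAGTCAaaaaagact
ILV3: ctctccagaTGACTCAgtaatatag
LEU9: cgtagtgaaTGACTCAtatttttcc
In R64 they lie at chrIII:68517-68541 (minus strand) for HIS4, chrX:268476-268500 (plus) for ARG3 and chrV:258226-258250 (minus) for HOM3. Those of LYS1, ILV3 and LEU9 lie at chrIX:420971-420995 (minus), chrX:466328-466352 (minus) and chrXV:522761-522785 (plus). The element of ILV3 ended 128 bases before the start codon and that of ARG3 307 bases before it. All 6 hold the same core, and the accounts below show HIS4 and LYS1 higher in heat, ILV3 and LEU9 lower in heat, and ARG3 and HOM3 higher with rapamycin.

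The palindrome of CCGG, any 2 bases and CCGG, the form of element known for Leu3, was searched on both strands of the same windows. It was found in 11 of the 5016 genes (0.219%), and 3 of these were branched-chain genes of the list. They are printed as the only genes of the list with this element. All 3 fell in heat, as did 29 of the 43 genes of the list without it.
LEU1: acgaaaattCCGGGACCGGcgaaatttg
ILV5: cggtctcctCCGGTACCGGttctgccac
BAT1: ttgtgtttgCCGGTACCGGcctttaagc
They lie at chrVII:478851-478878 (minus strand) for LEU1, chrXII:839612-839639 (minus) for ILV5 and chrVIII:517376-517403 (plus) for BAT1. The promoters of LEU1, ILV5 and BAT1 also held TGACTCA.

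Most of the 46 genes fell in heat shock, and few of them were called with rapamycin. In heat shock 32 of the 46 fell and 3 rose, against 37.2% and 32.6% of all genes tested, and the median mean change was −0.91 over the 46 and −0.08 over all genes. Under equal totals 26 of the 46 fell and 7 rose in heat, and 1357 and 2063 of all genes, against 1839 and 1607 as deposited. With rapamycin 5 rose and 1 fell, against 12.3% and 13.9% of all genes, and the medians were 0.17 over the 46 and −0.05 over all genes. The share that rose with rapamycin, 5 of 46, was thus near that of all genes. Each standard error is pooled over both courses, so the heat libraries enter the rapamycin calls. Without the 15 min heat shock library 8 of the 46 rose and 3 fell with rapamycin, and 739 and 893 of all genes. Under equal totals 8 of the 46 rose and none fell, and 788 and 427 of all genes, against 609 and 687 as deposited. The 46 genes together took 1.76% of the summed normalized counts in the untreated library and 0.713%, 0.815%, 1.21%, 1.35% and 1.32% of them at 15, 30, 60, 90 and 120 min of heat shock. In the rapamycin course their share was 1.61% untreated and 1.80%, 1.96%, 2.02%, 1.99% and 1.90% at 15, 30, 60, 90 and 120 min. The heat shock values thus all lay below the untreated one, and the rapamycin values all lay above it.

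**Figure D1:**
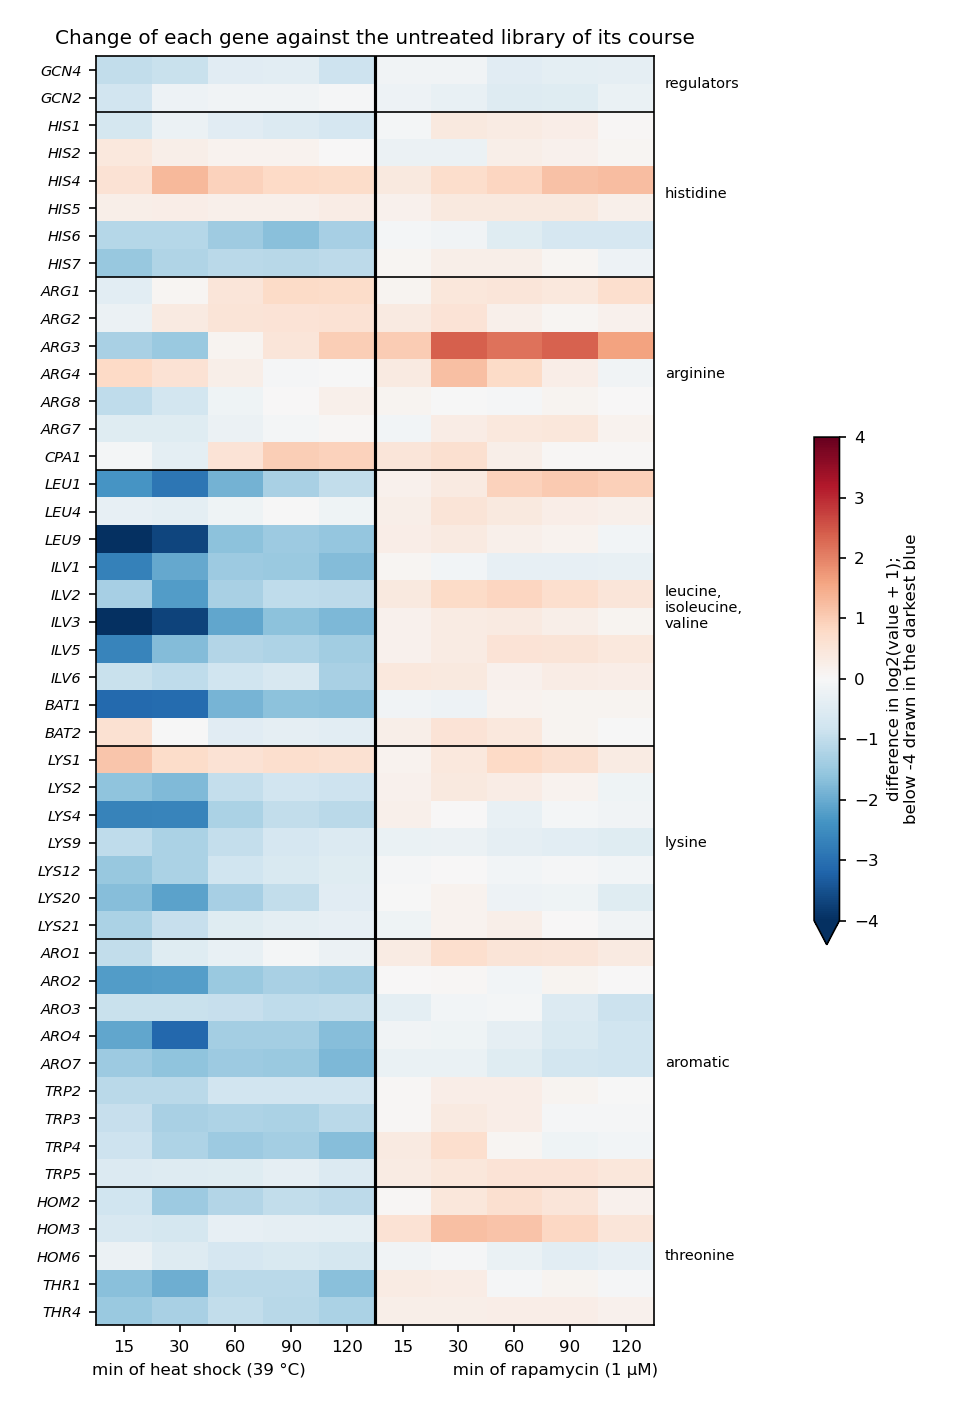
Difference in log2(value + 1) of each of the 46 genes (rows, by synthesis group) from the untreated library of its course, at 15 to 120 min of heat shock (left) and rapamycin (right), 1 library per column. Blue is lower and red higher. The darkest blue stands in the branched-chain rows at 15 and 30 min of heat, and the darkest red in ARG3 with rapamycin.

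At 15 min of heat shock 23 of the 46 genes were lower by 2-fold or more and 1 was higher, where 23.5% and 19.9% of all genes tested were. The gene that was higher was LYS1. At 30 min of rapamycin 3 were higher and none lower by 2-fold, where 2.43% and 2.01% of all genes were. The 3 were ARG3, HOM3 and ARG4, the last named after its value was seen. Among the treated libraries, 20 of the 46 genes had their lowest heat shock value at 15 min and 14 at 30 min. With rapamycin 18 had their highest value at 30 min and 12 at 60 min. In heat 34 genes stayed below the untreated library at all 5 times and 4 stayed above it. With rapamycin 18 stayed above it at all 5 times and 8 stayed below it. The 5 comparisons of a course share 1 untreated library. These counts by time were not made over all genes, so they are not shown to be particular to the list. Over all genes tested, changes in heat were also widest early. Their standard deviation was 1.84, 1.64, 1.30, 1.30 and 1.33 at 15, 30, 60, 90 and 120 min.

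**Figure D2:**
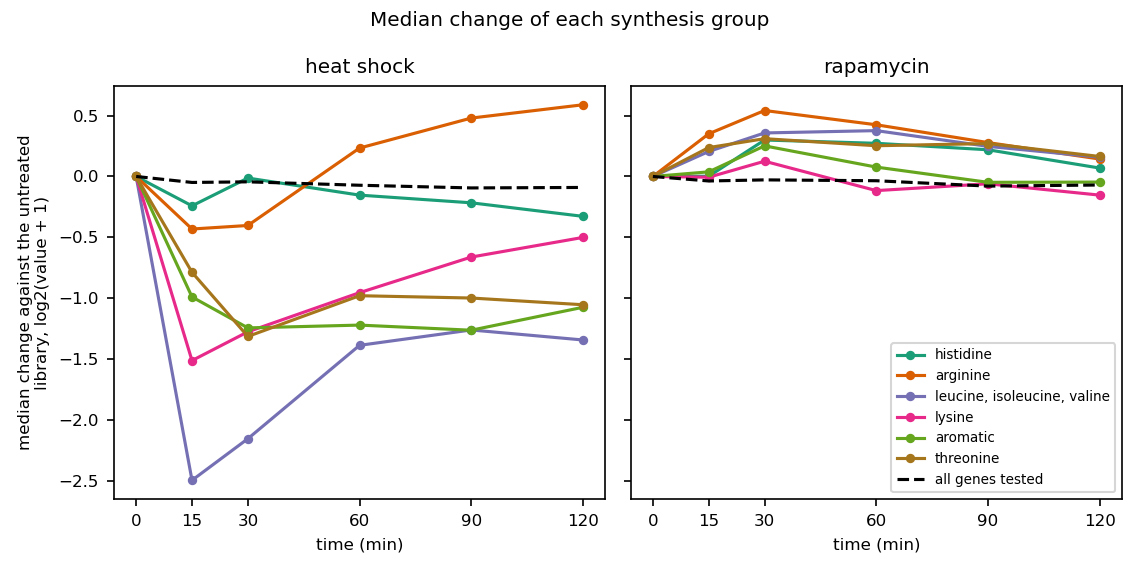
Median difference in log2(value + 1) from the untreated library of the course, for the genes of each synthesis group (coloured lines) and all 4937 genes tested (dashed line), by time of heat shock (left) or rapamycin (right). The branched-chain median was −2.49 at 15 min of heat and the arginine median reached 0.59 at 120 min of heat, while all rapamycin medians lay between −0.15 and 0.54.

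GCN4, the transcriptional activator of these pathways, had the highest level per kilobase of coding sequence among the 46 genes in both untreated libraries (9049 in the heat shock course and 11422 in the rapamycin course). Its normalized read count was 7656 untreated and 3902, 4113, 5602, 5662 and 4285 at 15, 30, 60, 90 and 120 min of heat shock. All 5 heat shock values lay below the untreated one, and the mean change was −0.72 ± 0.22 (SE, adjusted p 0.0141), a fall. With quantile normalization the change was 0.02, and with libraries scaled to equal totals it was −0.44, and neither was called. In the rapamycin course GCN4 was 9663 untreated and 8778, 8845, 7105, 7441 and 7615 at 15, 30, 60, 90 and 120 min. The mean change was −0.29 ± 0.22 (adjusted p 0.364, not called). Heat shock and rapamycin differed by −0.43 ± 0.31, also without a call (adjusted p 0.280), but with exchanged untreated libraries the difference was −1.10 and called (adjusted p 0.0137).

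GCN2 encodes the kinase that senses uncharged tRNA. Its values were 605 untreated and 354, 524, 552, 553 and 590.5 at 15, 30, 60, 90 and 120 min of heat shock. The mean change of −0.25 ± 0.15 was not called (adjusted p 0.156), and it was 0.02 under equal totals and, with exchanged untreated libraries, −0.43 and called (adjusted p 0.0247). GCN2 rose among the treated libraries of the heat course, by 0.22 ± 0.06 per doubling of time (adjusted p 0.00896), but by 0.07 ± 0.07 when the 15 min library was left out, which was not called. With rapamycin it lay between 484 and 588, below the 684 of the untreated library, and the mean change of −0.35 ± 0.15 was not called (adjusted p 0.112).

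The branched-chain group showed the deepest changes in heat. Of its 10 genes 8 fell and none rose in heat shock, with a median mean change of −1.75, and with rapamycin none was called, with a median of 0.28. All 10 were higher in the untreated library of the heat course than in that of the rapamycin course. The median of that difference was 0.331, above the rapamycin median, and its range was 0.177 to 0.815. ILV3, dihydroxyacid dehydratase, which serves both the isoleucine and the valine branch, was 5964 untreated and 306, 455, 1412, 1912 and 1697 at 15, 30, 60, 90 and 120 min of heat shock. Its mean change was −2.70 ± 0.26 (adjusted p 6.85e-06). All 5 values lay below the untreated one, the lowest first, and the value at 120 min was still less than the untreated value by 1.81 on the log2 scale. With rapamycin ILV3 was 4903 untreated and 5497, 6119, 6288, 5789.9 and 5244 at 15, 30, 60, 90 and 120 min (mean change 0.24 ± 0.26, adjusted p 0.529). With the untreated libraries exchanged between the courses that change was −0.05.

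LEU1, isopropylmalate isomerase of the leucine branch, was 4288 untreated and 843, 582, 1167, 1759 and 2169 at 15, 30, 60, 90 and 120 min of heat shock. It fell by 1.87 ± 0.32 on the log2 scale (adjusted p 0.000356). In the rapamycin course LEU1 was 3223 untreated and 3646, 4149, 6141, 6657 and 6204 at 15, 30, 60, 90 and 120 min. All 5 rapamycin values lay above the untreated one and the last 3 were the highest, but the mean change of 0.69 ± 0.32 was not called (adjusted p 0.130). The error of a gene is pooled over both courses. Without the 15 min heat shock library the same change of 0.69 had an adjusted p of 0.00697, and without the 30 min one 0.0289.

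ILV1, threonine deaminase, which opens the isoleucine branch, was 2012 untreated and 306, 484, 728, 722 and 599 at 15, 30, 60, 90 and 120 min of heat shock (mean change −1.89 ± 0.21, adjusted p 1.76e-05). With rapamycin it ranged from 1121 to 1499, and was 1411 untreated (−0.19 ± 0.21, adjusted p 0.513). With exchanged untreated libraries that change was −0.71 and called (adjusted p 0.039). The other genes of the group that fell in heat had mean changes between −2.68 and −0.93. ILV5, the reductoisomerase and the most abundant enzyme gene of the list per kilobase in the untreated libraries, was among them.

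LEU9 and BAT1 fell in heat, while LEU4 and BAT2, genes for the same enzyme steps, were not called. Of the pairs described further below, LYS20 and LYS21 both fell in heat, as did ARO3 and ARO4. LEU4 and LEU9 both encode isopropylmalate synthase, the first enzyme of the leucine branch. LEU9 was 1900 untreated and 54.9, 147, 603, 699.8 and 655 at 15, 30, 60, 90 and 120 min of heat shock, and fell by 2.68 ± 0.32 on the log2 scale (adjusted p 3.32e-05). LEU4 was between 2748 and 3563 in heat, against 3588 untreated, with a mean change of −0.22 ± 0.17 that was not called (adjusted p 0.273). The sign of LEU4 depended on the scaling, with 0.06 for libraries of equal totals and 0.53 after quantile normalization, where it was called higher. The ratio of LEU4 to LEU9 normalized counts was 1.89 untreated and 52.3, 18.7, 5.27, 5.09 and 4.82 at 15, 30, 60, 90 and 120 min of heat. With rapamycin it stayed between 1.93 and 2.45, and was 1.95 untreated. LEU9 had the largest positive time trend of the 46 genes in heat, 1.29 ± 0.12 per doubling of time (adjusted p 6.79e-05).

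BAT1 and BAT2 encode the mitochondrial and the cytosolic branched-chain aminotransferase. BAT1 was 3839 untreated and 446, 455, 1053, 1240.4 and 1217 at 15, 30, 60, 90 and 120 min of heat shock (mean change −2.27 ± 0.22, adjusted p 7.19e-06). BAT2 was 1030 untreated and 1579, 1019, 756, 805 and 764 at 15, 30, 60, 90 and 120 min. Its mean change of −0.13 ± 0.20 was not called (adjusted p 0.597) and became 0.15 under equal totals, 0.14 under quantile normalization and 0.05 with exchanged untreated libraries. BAT2 fell with time in heat, by 0.34 ± 0.08 per doubling (adjusted p 0.00383), but by 0.20 without the 15 min library, which was not called. The ratio of BAT1 to BAT2 was thus 3.73 untreated and 0.283, 0.447, 1.39, 1.54 and 1.59 at 15, 30, 60, 90 and 120 min of heat. In the rapamycin course it was between 1.80 and 3.34 after treatment, lowest at 30 min, against 3.04 untreated. BAT1 (0.01 ± 0.22, adjusted p 0.979) and BAT2 (0.26 ± 0.20, adjusted p 0.368) were not called with rapamycin. Neither LEU4 and LEU9 nor BAT1 and BAT2 shared any stretch of 50 coding bases.

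**Figure D3:**
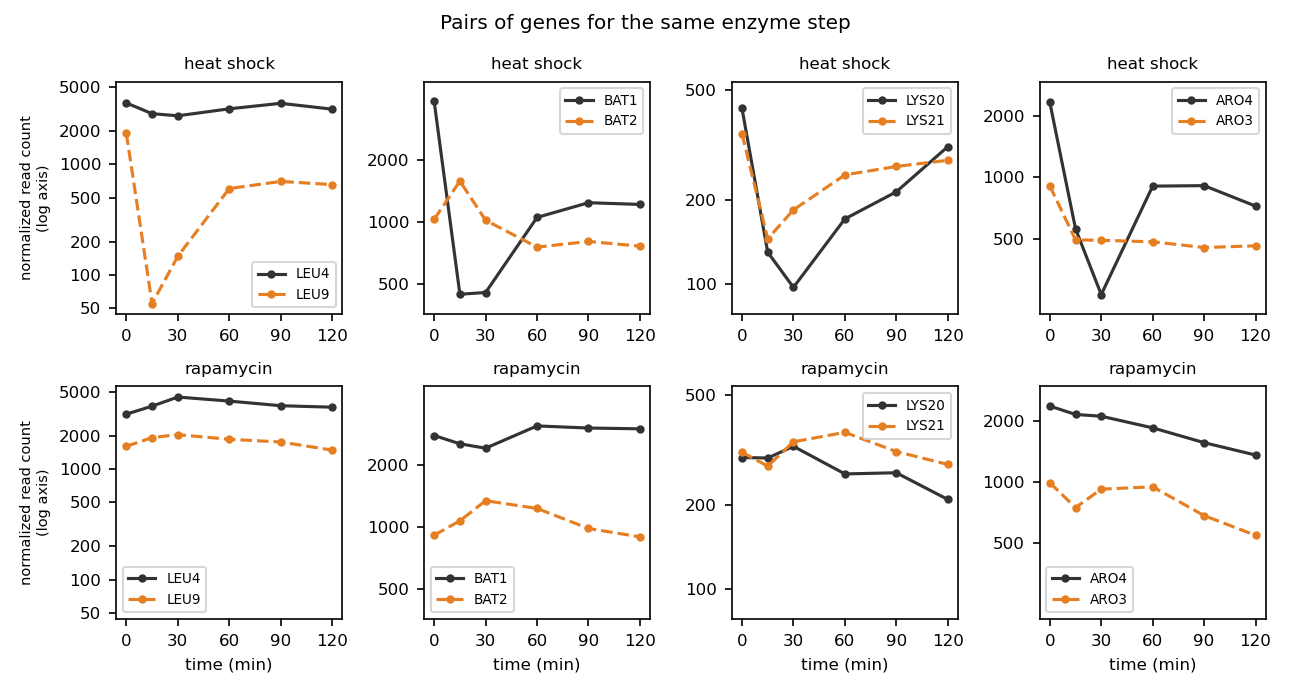
Normalized read counts (log axes) against time for 4 pairs of genes that encode the same enzyme step, in heat shock (top row) and rapamycin (bottom row), 1 library per point. LEU9 and BAT1 drop at 15 min of heat while LEU4 stays between 2748 and 3563 and BAT2 stands at 1579, and with rapamycin LEU4 stays above LEU9 and BAT1 above BAT2 at every time.

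Of the 7 lysine genes 6 fell and 1 rose in heat shock (median −0.93), and with rapamycin none was called (median −0.06). LYS4, homoaconitase, was 1014 untreated and 158, 162, 420.4, 508 and 485 at 15, 30, 60, 90 and 120 min of heat shock (mean change −1.73 ± 0.24, adjusted p 9.47e-05). With rapamycin it ranged from 534 to 771, and was 663 untreated (−0.06 ± 0.24, adjusted p 0.872, 0.04 and 0.09 under equal totals and quantile normalization, and −0.67, not called, with exchanged untreated libraries). LYS9, which forms saccharopine, had values between 249 and 413 in heat, and 603 untreated (−0.89 ± 0.16, adjusted p 0.000544). With rapamycin LYS9 ranged from 502 to 597, and was 699 untreated (−0.35 ± 0.16, adjusted p 0.127).

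LYS1 encodes the enzyme of the last step, which releases lysine from saccharopine, and it went the other way. It was 299 untreated and 646, 503, 447, 476 and 455 at 15, 30, 60, 90 and 120 min of heat shock. All 5 heat values lay above the untreated one, and the rise of 0.74 ± 0.19 (adjusted p 0.00563) was called under each of the 24 alternative settings. None of the 24 required a change of at least 1. With rapamycin LYS1 was 259 untreated and 289, 347, 455, 404 and 325 at 15, 30, 60, 90 and 120 min. These values too lay above the untreated one, but the mean change of 0.47 ± 0.19 was not called (adjusted p 0.0980).

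LYS20 and LYS21 encode homocitrate synthase, the first enzyme of the pathway. LYS20 was 429 untreated and 130.2, 97.2, 172, 215 and 312 at 15, 30, 60, 90 and 120 min of heat shock (−1.32 ± 0.27, adjusted p 0.00142). LYS21 was between 145 and 279 in heat, against 348 untreated (−0.67 ± 0.16, adjusted p 0.00296). With rapamycin the mean changes were −0.15 ± 0.27 for LYS20 (adjusted p 0.722) and 0.01 ± 0.16 for LYS21 (adjusted p 0.962). Of the stretches of 50 coding bases in LYS21, 36.7% also occur in LYS20, so reads of this pair may be shared or lost in counting and the split between them is uncertain.

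All 9 aromatic genes fell in heat shock, with a median mean change of −1.15, and with rapamycin 1 rose and 1 fell (median 0.11). ARO3 and ARO4 encode the synthases of the first common step, which are held back by phenylalanine and by tyrosine. ARO4 was 2340.3 untreated and 559, 266, 906, 912 and 723 at 15, 30, 60, 90 and 120 min of heat shock (−1.92 ± 0.43, adjusted p 0.00233). ARO3 was between 452 and 493 at all 5 times of heat, against 908 untreated (−0.93 ± 0.21, adjusted p 0.00276), nearly level after the first drop. The ratio of ARO4 to ARO3 was 2.58 untreated and 1.13, 0.541, 1.88, 2.02 and 1.57 at 15, 30, 60, 90 and 120 min of heat. With rapamycin ARO4 was 2371 untreated and 2156, 2113, 1852, 1567 and 1361 at 15, 30, 60, 90 and 120 min, lower at each later time, but the mean change of −0.41 ± 0.43 was not called (adjusted p 0.508). The mean change of ARO3 with rapamycin, −0.39 ± 0.21, was not called either (adjusted p 0.196).

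ARO1 encodes a protein that carries out several consecutive steps of the common pathway. It was 1245 untreated and 627, 883, 1023, 1168 and 1057 at 15, 30, 60, 90 and 120 min of heat shock. The fall of 0.42 ± 0.16 on the log2 scale (adjusted p 0.0412) was lost under 11 of the 24 alternative settings. It was −0.15 under equal totals and −0.11 under quantile normalization, and without the 15 min library it was −0.35 and not called. With rapamycin ARO1 was 1075 untreated and 1353, 1728, 1549.7, 1507 and 1382 at 15, 30, 60, 90 and 120 min (0.48 ± 0.16, adjusted p 0.0552). ARO7, chorismate mutase, which commits chorismate to phenylalanine and tyrosine, fell in both courses. It was between 152 and 194 in heat, against 535 untreated (−1.56 ± 0.14, adjusted p 5.11e-06). With rapamycin it was 677 untreated and 567, 558, 479, 408 and 385 at 15, 30, 60, 90 and 120 min (−0.51 ± 0.14, adjusted p 0.0253). With exchanged untreated libraries the rapamycin change was −0.17 and not called. TRP5, tryptophan synthase, was the aromatic gene that rose with rapamycin (0.46 ± 0.12, adjusted p 0.0189), named after its value was seen. It was between 1298 and 1512 with rapamycin, against 1038 untreated, but the untreated library of the heat course stood at 1510.3, and against it the change was −0.08.

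Of the 5 threonine genes 4 fell and none rose in heat shock (median −1.09), and 1 rose with rapamycin (median 0.23). HOM3, aspartate kinase, which opens the pathway to threonine and methionine, was 724 untreated and 1086, 1673, 1584, 1298 and 1021 at 15, 30, 60, 90 and 120 min of rapamycin. All 5 rapamycin values lay above the untreated one, and the rise was 0.85 ± 0.24 (adjusted p 0.0297). With exchanged untreated libraries it was 0.55 and not called, and without the 90 min rapamycin library it was 0.85 with an adjusted p of 0.0575. In heat HOM3 lay between 542 and 702, below the 889.9 of the untreated library (−0.49 ± 0.24, adjusted p 0.0982).

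THR1, homoserine kinase, was 1711 untreated and 541, 446, 806, 817 and 538 at 15, 30, 60, 90 and 120 min of heat shock (−1.48 ± 0.26, adjusted p 0.000503). The untreated library of the rapamycin course stood at 955, and against it the heat shock change was −0.64. Rapamycin values of THR1 ranged from 921 to 1207 (0.13 ± 0.26, adjusted p 0.747), and with exchanged untreated libraries the change was −0.71 and not called. HOM6, homoserine dehydrogenase, was between 1587 and 2203 in heat, against 2607 untreated (−0.55 ± 0.14, adjusted p 0.00474). That fall was −0.28 under equal totals and −0.02 under quantile normalization, neither called. With rapamycin the mean change of HOM6 was −0.23 ± 0.14 (adjusted p 0.235).

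The 6 histidine genes split in heat shock, with 1 that rose and 3 that fell (median −0.17). HIS4, a protein with several activities of the pathway, was 311 untreated and 462, 773, 588.5, 547 and 512 at 15, 30, 60, 90 and 120 min of heat shock. In the rapamycin course it was 266 untreated and 345, 435, 479, 595 and 627 at 15, 30, 60, 90 and 120 min. HIS4 rose in both courses, by 0.87 ± 0.22 in heat (adjusted p 0.00451) and by 0.86 ± 0.22 with rapamycin (adjusted p 0.0169). All 10 treated values lay above both untreated values. The rapamycin values were higher at each later time, and the trend of 0.28 ± 0.08 per doubling was called (adjusted p 0.0388), though without 1 of 6 libraries (the 90 min heat shock library or any rapamycin library) it was not. Against the untreated library of the heat course the rapamycin change was 0.64 and not called.

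HIS6, the isomerase of the pathway, was 369 untreated and 167, 167, 136, 116 and 147 at 15, 30, 60, 90 and 120 min of heat shock (−1.34 ± 0.15, adjusted p 2.28e-05). With rapamycin HIS6 was 382 untreated and 359.9, 347, 272, 241 and 242 at 15, 30, 60, 90 and 120 min. Its mean change of −0.41 ± 0.15 was not called (adjusted p 0.0714), while its trend of −0.22 ± 0.06 per doubling was (adjusted p 0.0262). That trend was not called under quantile normalization (−0.20), with a slope in minutes, or without the 15, 30, 90 or 120 min rapamycin library. HIS4 was thus higher and HIS6 lower in the treated libraries of both courses than in their untreated ones. Heat changes of the other histidine genes lay between −1.19 and 0.25.

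The 7 arginine genes had the highest median mean change in heat of the synthesis groups, 0.31, where 1 rose and 1 fell. Among the treated heat libraries 6 of the 7 rose with time, where 28.3% of all genes did. That was not particular to them, as 6 of 7 lysine and 6 of 10 branched-chain genes also rose with time in heat. Their summed counts were 2737 untreated and 2682, 2576, 3367, 3945 and 3969 at 15, 30, 60, 90 and 120 min of heat shock. In the rapamycin course the sum was 2672 untreated and 3285, 4327, 3586, 3231 and 2948 at 15, 30, 60, 90 and 120 min. The heat sum was thus highest in the late libraries and the rapamycin sum at 30 min.

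ARG3, ornithine carbamoyltransferase, had the lowest level per kilobase of the 46 genes in both untreated libraries. It was 33.1 untreated and 67.6, 178, 153, 175 and 103 at 15, 30, 60, 90 and 120 min of rapamycin. The untreated value rested on 35 reads and the 15 min value on 74. The rise of 1.91 ± 0.47 (adjusted p 0.0159) was the largest rapamycin change of the 46 genes, and all 5 values were more than 2-fold above the untreated one. Against the untreated library of the heat course it was 1.29, and under quantile normalization 1.56, and neither was called. In heat ARG3 was 51.3 untreated and 20.3, 17.8, 55.5, 71.9 and 103 at 15, 30, 60, 90 and 120 min. Its reads were 36 untreated and 20 and 15 at 15 and 30 min of heat. Values below and above the untreated one gave a mean change of −0.24 ± 0.47 that was not called (adjusted p 0.667) and whose sign turned to 0.03 under equal totals and 0.38 against the other untreated library. The trend in heat was 0.84 ± 0.18 per doubling of time (adjusted p 0.00275).

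CPA1, the small subunit of the arginine-specific carbamoyl phosphate synthetase, was 938 untreated and 887, 710.0, 1361, 1861 and 1769 at 15, 30, 60, 90 and 120 min of heat shock. It rose with time in heat by 0.44 ± 0.09 per doubling (adjusted p 0.00275). Its mean change in heat was 0.39 ± 0.25 (adjusted p 0.178). With rapamycin CPA1 was 852 untreated and 1189, 1342, 998, 887 and 872 at 15, 30, 60, 90 and 120 min (0.29 ± 0.25, adjusted p 0.404). ARG8, acetylornithine aminotransferase, was 334 untreated and 164, 199, 299, 339 and 382 at 15, 30, 60, 90 and 120 min of heat shock, and its fall of 0.34 ± 0.11 on the log2 scale (adjusted p 0.0192) was −0.07 under equal totals and not called. Its rapamycin values lay between 398 and 440.3, around the 411 of the untreated library (0.03 ± 0.11, adjusted p 0.873). ARG1, argininosuccinate synthetase, was the arginine gene that rose in both courses, by 0.33 ± 0.13 in heat (adjusted p 0.0381) and 0.43 ± 0.13 with rapamycin (adjusted p 0.0334), and is named after its values were seen. The heat call of ARG1 was lost under 7 of the 24 alternatives and the rapamycin call under 4, all among the time scale, the exchanged untreated library and the leaving out of single libraries.

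**Figure D4:**
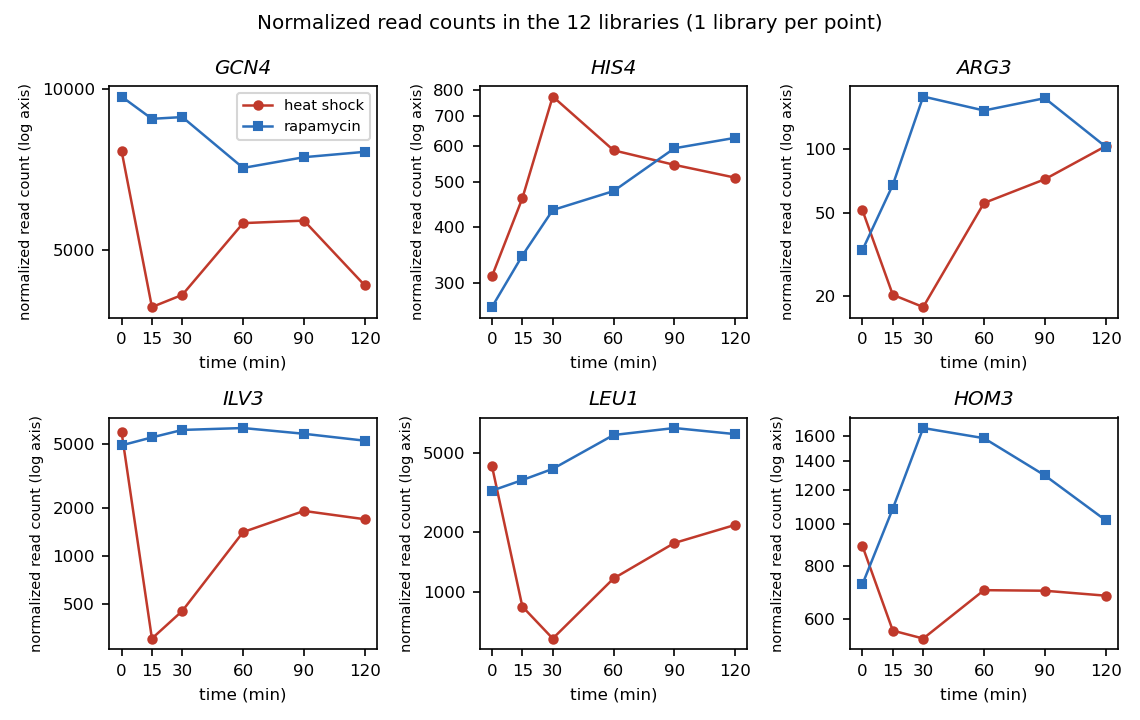
Normalized read counts (log axes) of 6 genes in each library against time, for heat shock (red circles) and rapamycin (blue squares), 1 library per point. ILV3 and LEU1 drop to 306 and 582 in heat, HIS4 lies above its untreated values in both courses, and ARG3 and HOM3 reach 178 and 1673 at 30 min of rapamycin.

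Set against each other, heat shock lay below rapamycin for most of the 46 genes. The mean change in heat was lower than that with rapamycin, by a test of the difference itself, in 27 of the 46 genes and higher in none, where 24.2% and 21.7% of all genes tested were. The 27 held 8 of the 10 branched-chain genes, 7 of 9 aromatic, 5 of 7 lysine, 4 of 5 threonine, 2 of 6 histidine and 1 of 7 arginine genes, and neither regulator. ILV3 had the largest difference, −2.94 ± 0.36 (adjusted p 0.000218), and LEU9 the next, −2.85 ± 0.45 (adjusted p 0.000855). With the untreated libraries exchanged between the courses, 17 of the 27 kept their call. In a fit that paired the libraries of the same time, 25 of the 27 did, and ARG3 (adjusted p 0.0541) and LYS20 (adjusted p 0.0604) did not. Among the treated libraries of the heat course, 21 of the 46 genes rose and 3 fell with time, against 28.3% and 25.4% of all genes. Under equal totals 32 of the 46 rose and 1 fell with time in heat, but 2601 of the 4937 genes tested then rose and 440 fell, against 1397 and 1254 as deposited. With rapamycin 1 rose with time and 2 fell, against 8.32% and 9.88% of all genes. The 3 were HIS4, HIS6 and ARO7, and the trend of ARO7 (−0.20 ± 0.05, adjusted p 0.0307) was not called under equal totals, quantile normalization, or without the 15, 30, 90 or 120 min rapamycin library. The trend in heat was above that with rapamycin in 18 of the 46 genes and below it in 1, where 26% and 21% of all genes were. Under equal totals these counts were 28 and 0 of the 46, and 1969 and 548 of all genes, against 1286 and 1037 as deposited.

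**Figure D5:**
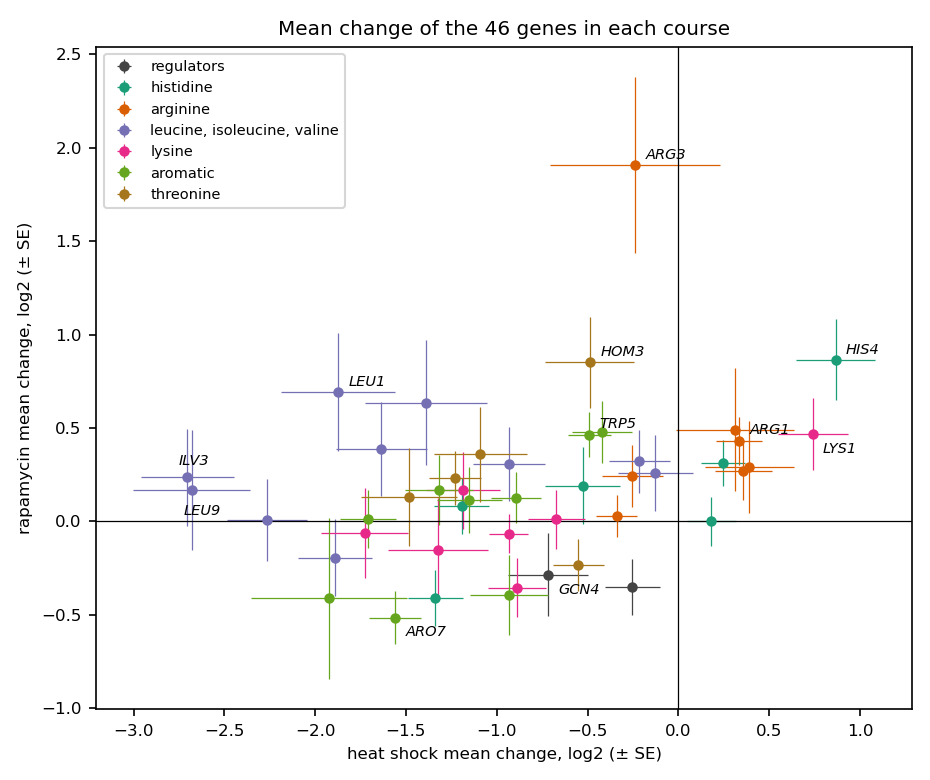
Mean change of each of the 46 genes in heat shock (x axis) and with rapamycin (y axis), log2, with standard errors of the limma fit, coloured by synthesis group. Most points lie left of 0 near the horizontal line, branched-chain genes farthest left, with HIS4 at 0.87 and 0.86 and ARG3 at −0.24 and 1.91.

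The untreated libraries differed in these genes as well, with a median difference of 0.16 (heat shock course minus rapamycin course) over the 46 genes, against −0.03 over all genes. The largest difference was that of THR1, 0.84, and the lowest was −0.34, that of ARO7. Each course rests on 1 untreated library, and the part of this difference in the changes of the heat and rapamycin courses was not tested, other than by exchanging the libraries.

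Most genes with TGACTCA and most genes without it fell in heat. The 24 genes with TGACTCA had a median mean change of −0.71 in heat, where 3 rose and 15 fell, and 0.31 with rapamycin, where 4 rose and none fell. The 22 genes without it had medians of −0.93 in heat, where none rose and 17 fell, and −0.03 with rapamycin, where 1 rose and 1 fell. Over all genes tested 32.6% rose and 37.2% fell in heat, and 12.3% rose and 13.9% fell with rapamycin. The counts are a description of the list, and the difference between genes with and without TGACTCA was not tested.

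Most other genes around general amino acid control fell in heat. Of 17 other genes of this control, which comprise partners of Gcn2, subunits of eIF2 and eIF2B and regulators of Gcn4, 14 fell and 2 rose in heat (median −1.42), and 4 fell and none rose with rapamycin (median −0.25). Over all genes tested 37.2% fell and 32.6% rose in heat, and 13.9% fell and 12.3% rose with rapamycin, and the counts of this and the next 3 lists are read against these shares. GCD10 and GCD14, the subunits of a tRNA methyltransferase, fell in heat, with mean changes of −2.09 ± 0.26 (adjusted p 4.1e-05) and −2.08 ± 0.14 (adjusted p 8.51e-07). They also fell with rapamycin, with −0.82 ± 0.26 (adjusted p 0.0409) and −0.90 ± 0.14 (adjusted p 0.00245). GCD11 and SUI2, the gamma and alpha subunits of eIF2, of which the alpha subunit is the substrate of Gcn2, fell in heat, with −1.98 ± 0.18 (adjusted p 5.11e-06) and −1.91 ± 0.16 (adjusted p 2.81e-06). SUI3, the beta subunit, fell in heat (−1.76 ± 0.14, adjusted p 2.07e-06) and with rapamycin (−0.71 ± 0.14, adjusted p 0.00602). GIR2 likewise fell in heat (−1.31 ± 0.14, adjusted p 1.62e-05) and with rapamycin (−0.56 ± 0.14, adjusted p 0.0176). The untreated libraries, heat shock course minus rapamycin course, differed by −0.36 for SUI3, −0.28 for GCD14, −0.17 for GCD10 and −0.14 for GIR2. Changes with exchanged untreated libraries are not given for the genes of this and the next 3 lists. The 2 that rose in heat were PCL5, whose protein is a cyclin that promotes breakdown of Gcn4, with a rise of 1.13 ± 0.22 (adjusted p 0.000967), and PHO85, its kinase, with 0.49 ± 0.16 (adjusted p 0.0165). PCL5 and PHO85 are named after their values were seen. PCL5 was 1772 at 15 min of heat and between 920 and 1013 afterwards, against 505 untreated.

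Of 13 other genes of the same pathways 3 rose and 3 fell in heat, and 3 rose and none fell with rapamycin. OAC1, a mitochondrial carrier that exports isopropylmalate, was 254 at 15 min and 612 at 120 min of heat shock, against 1559 untreated, and fell by 2.04 ± 0.21 (adjusted p 1.05e-05). TYR1, prephenate dehydrogenase, fell (−0.88 ± 0.12, adjusted p 6.58e-05), as did ARO8, an aromatic aminotransferase (−0.80 ± 0.18, adjusted p 0.00211). LEU5, a mitochondrial carrier involved in coenzyme A supply, rose by 1.04 ± 0.13 in heat (adjusted p 3.94e-05). With rapamycin the rises were those of LEU2, isopropylmalate dehydrogenase (0.97 ± 0.26, adjusted p 0.0216), HIS3, a dehydratase of histidine synthesis (0.74 ± 0.18, adjusted p 0.0171) and ARG5,6 (0.46 ± 0.13, adjusted p 0.0316). LEU2 was 1453 untreated and 2229, 2527, 2838, 3317 and 3543 at 15, 30, 60, 90 and 120 min of rapamycin.

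Among 9 activators of single pathways and their partners, 3 rose and 3 fell in heat, near the shares of all genes, and 1 rose and none fell with rapamycin. BAS1, an activator of histidine and purine genes, fell by 2.41 ± 0.34 in heat (adjusted p 0.000111), to 16.3 at 15 min, against 335 untreated. LEU3, the activator of branched-chain genes, was 114 at 15 min of heat, against 347 untreated, and fell by 0.85 ± 0.20 (adjusted p 0.00338). PHO2, the partner of Bas1, rose by 0.87 ± 0.16 in heat (adjusted p 0.000617). ARG82, an inositol polyphosphate kinase required for arginine control, rose by 1.48 ± 0.15 in heat (adjusted p 1.23e-05) and 0.69 ± 0.15 with rapamycin (adjusted p 0.00984). Of 17 genes for the synthesis of other amino acids 11 fell and 2 rose in heat (median −0.89), and 1 rose and 1 fell with rapamycin (median 0.07). PRO1, glutamate kinase of proline synthesis, fell in heat (−2.26 ± 0.13, adjusted p 2.99e-07) and with rapamycin (−0.47 ± 0.13, adjusted p 0.0272). ASN1 and ASN2, both asparagine synthetases, fell in heat, with −2.09 ± 0.18 (adjusted p 3.74e-06) and −1.71 ± 0.19 (adjusted p 1.88e-05). GLY1, threonine aldolase, fell by 1.84 ± 0.23 in heat (adjusted p 4.19e-05), and AAT2, the cytosolic aspartate aminotransferase, rose by 0.70 ± 0.18 with rapamycin (adjusted p 0.0192). The untreated libraries, heat shock course minus rapamycin course, differed by 0.30 for ARG82, 0.21 for AAT2 and −0.12 for PRO1. For ARG5,6, LEU2 and HIS3 that difference was 0.12, 0.05 and −0.01.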

How the data were processed

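Values were taken from the table of normalized read counts that the authors deposited, a signal per gene and library rounded to 2 decimals. Per the submitters' processing notes, Bowtie, HTSeq and the genome build sacCer3 were used, with no versions, and how the counts were normalized is not given in the sources used here. The low values of the deposited signal were whole multiples of 1 step per library, between 0.8133 and 1.4261, and dividing by the step gave whole reads within 0.05 for 100% of the values. For the 60, 90 and 120 min heat shock libraries few low values fix the step.

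The 46 genes and the lists of other genes were chosen with earlier results of these data known. Values were tested as log2(value + 1) with limma 3.58.1 (R 4.3.3) on the 4937 genes with a mean of at least 10. All 12 libraries entered 1 fit, in which each course had an intercept set by its untreated library, a step after treatment and a line over log2 of the treated times. The residual, with 6 degrees of freedom, is thus the departure from a line in log2(time), pooled over both courses. P-values were adjusted by Benjamini-Hochberg over all genes tested. The labels do not say whether the libraries came from separate cultures, and the temperature of the rapamycin course is not given. Named genes are GCN4, GCN2, the genes with the largest positive and negative mean change of each synthesis group and course, and genes for the same enzyme step. Of the table's 5045 identifiers 5016 were found in RefSeq, from which the sequences came. No annotated gene overlapped the 46.

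Alternatives were other pseudocounts and filters, libraries scaled to equal totals, quantile normalization, median of ratios, 1 baseline shared by both courses, the untreated libraries exchanged, a slope in minutes, other limma settings, leaving out each treated library, and count tests on the recovered reads with edgeR 4.0.16 and DESeq2 1.42.0. edgeR called 1679 genes higher and 1726 lower in heat, and 650 higher and 681 lower with rapamycin. A fit to the heat shock minus rapamycin difference at each time, which pairs libraries of the same time, was chosen after seeing the data.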

Additional observations from a re-analysis of the deposited data

Results flagged for a closer look

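The mean change in heat shock and that with rapamycin differed, by the test of the difference itself, for the genes that follow, each difference being heat shock minus rapamycin on the log2 scale. In the branched-chain group the differences were −2.94 for ILV3, −2.85 for LEU9, −2.57 for LEU1, −2.27 for BAT1 and −1.70 for ILV1. In the lysine group they were −1.67 for LYS4, −1.17 for LYS20 and −0.68 for LYS21, of which the last 2 share coding sequence. ARO7 and ARO1 of the aromatic group differed by −1.05 and −0.90, THR1 and HOM3 of the threonine group by −1.61 and −1.34, and HIS6 by −0.93. ARG3 differed by −2.14, with a rise under rapamycin and no call in heat. With the untreated libraries exchanged between the courses, the differences of ARG3, ILV1, LYS4, LYS20, LYS21, ARO1, THR1 and HOM3 were not called, and that of ARG3 was −0.91.

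Over the 46 genes the difference in mean change was lower in heat for 27, and the difference in time trend was higher in heat for 18 and lower for 1. The 1 gene was HIS2, named after its value was seen.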

How the results depend on the processing

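Of the 32 genes that fell in heat 24 were called under all 24 alternatives, as were 2 of the 3 that rose and 17 of the 27 lower in heat than with rapamycin. The 24 alternatives include neither a required change of at least 1 nor the pairing of libraries by time, which are given apart below. None of the 5 rises with rapamycin was called under all 24, and with the untreated libraries exchanged 1 of the 5 was. Equal totals moved the median gene by −0.04 to 0.48 on the log2 scale and quantile normalization by 0.02 to 0.13. The cause was not tested for any of the changes below. Pairing the libraries of the same time, chosen after seeing the data, gave 26 genes lower in heat than with rapamycin, 25 of them among the 27, and 17 higher and 1 lower in time trend.

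Genes that rose in heat, 3 as reported, numbered 7 under equal totals and quantile normalization, 5 under median of ratios, a shared baseline, edgeR and DESeq2, 0 with a change of at least 1 required, and 2 to 4 with 1 library left out. Genes that fell in heat numbered 20 with a change of at least 1 required and 30 to 33 with 1 library left out. With rapamycin 8 rose under equal totals and DESeq2, 2 with the untreated libraries exchanged, 1 with a change of at least 1 required and 4 to 8 with 1 library left out. The 1 that fell became 0 under equal totals, quantile normalization or a required change of at least 1, 2 with a shared baseline, and 0 to 3 with 1 library left out. A shared baseline made 1 gene higher in heat than with rapamycin.

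Of time trends in heat 32 were positive under equal totals and 17 to 23 with 1 library left out. Negative ones numbered 1 under equal totals, 5 under quantile normalization and 1 to 4 with 1 library left out. With rapamycin, positive trends numbered 3 under equal totals, quantile normalization, edgeR and DESeq2, 2 under median of ratios, 0 without a filter or with a slope in minutes, and 0 to 4 with 1 library left out. Negative ones numbered 1 under equal totals or a slope in minutes, 0 under quantile normalization and 0 to 3 with 1 library left out. For the difference in trend, 28 were higher under equal totals and 14 to 20 with 1 library left out. The lower ones numbered 0 under equal totals, 2 under quantile normalization and edgeR, 3 under DESeq2 and 0 to 2 with 1 library left out.

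Mean changes in heat turned sign under equal totals for GCN2 (0.02), ARG3 (0.033), LEU4 (0.058) and BAT2 (0.15), and under quantile normalization for GCN4 (0.02), LEU4 (0.53) and BAT2 (0.14). They also did so with a shared baseline for ARG3 (0.071) and with exchanged untreated libraries for ARG3 (0.38) and BAT2 (0.051). With rapamycin the sign turned with exchanged untreated libraries for GCN4 (0.05), ILV3 (−0.047), THR1 (−0.71), LEU9 (−0.072), BAT1 (−0.46) and LYS21 (−0.15). It turned with a shared baseline for THR1 (−0.29), BAT1 (−0.23) and LYS21 (−0.07), and for LYS4 under equal totals (0.035) and quantile normalization (0.088). Leaving out 1 library turned the rapamycin change for ARG8 (range −0.002 to 0.046), BAT1 (−0.023 to 0.046) and LYS21 (−0.044 to 0.113). The difference between courses turned for GCN4 under quantile normalization (0.26) and THR1 with exchanged untreated libraries (0.067), and the heat trend of HOM6 under equal totals (0.028).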
